A study of Mus musculus with 7 samples.

Results

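Tph1-expressing tumor nuclei are a small class of nuclei in mouse small cell lung tumors in which transcripts of Tph1, the first enzyme of serotonin synthesis, were counted. A nucleus belonged to the class when it held at least 2 Tph1 transcripts, when these made up at least 0.05% of its transcripts, and when it held no transcript of Ptprc, Flt1, Ptprb, Sftpc or Col1a2, which mark leukocytes, endothelial cells, alveolar type 2 cells and fibroblasts. Only nuclei of at least 1000 transcripts, at most 10% mitochondrial transcripts and at most 12000 genes were considered. These limits kept 34810 of the 38353 deposited nuclei, and 252 of the 34810 were members. The nuclei they were compared with, called Tph1-free nuclei here, passed the same limits and the same exclusion genes and held 0 Tph1 transcripts, and there were 27996 of them.

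Single nuclei were sequenced from fresh-frozen lung tumors of 4 male mice. RP1 and RP2 carried floxed alleles of Rb1 and Trp53 (Rb1 fl/fl, Trp53 fl/fl), and RPC1 and RPC2 carried in addition floxed Casp8, which the labels write as Casp8-/-. In all 4 animals the alleles were deleted by inhaled adenovirus with Cre under the CMV promoter, given at 8 to 12 weeks of age, so Cre could act in any infected lung cell, and tumors were taken at the endpoint. The 7 libraries each pool nuclei of all 4 animals, so the animal was the replicate, with 2 animals per genotype.

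Tryptophan hydroxylase 1 turns tryptophan into 5-hydroxytryptophan, the rate-limiting step of serotonin synthesis outside the brain. Aromatic L-amino acid decarboxylase, the product of Ddc, then makes serotonin, and the vesicular monoamine transporters load it into secretory granules, where it is stored with granins. Enterochromaffin cells of the gut and mast cells are known for Tph1, and serotonin has long been described in the neuroendocrine cells of the airway, the cells to which small cell lung cancer is closest.

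Tph1 lies on the minus strand of chromosome 7, from 46294065 to 46321965 in GRCm39, the build of the files. The sequence around its start sites is shown because the class is chosen by its transcripts. RefSeq lists 2 starts, and both windows are given 5′ to 3′ on the minus strand in GRCm38.p6 coordinates, the build of that table, 300 bases each, most of them upstream of the start. Capitals mark a CCAAT box in either orientation, that is, CCAAT or ATTGG.
Tph1, chr7:46667328-46667627: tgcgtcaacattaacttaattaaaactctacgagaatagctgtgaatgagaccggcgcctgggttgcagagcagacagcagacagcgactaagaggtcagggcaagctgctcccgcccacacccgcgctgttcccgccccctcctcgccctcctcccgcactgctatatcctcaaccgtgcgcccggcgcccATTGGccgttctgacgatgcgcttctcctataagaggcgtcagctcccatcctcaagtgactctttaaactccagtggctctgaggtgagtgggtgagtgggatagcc
Tph1, chr7:46672488-46672787: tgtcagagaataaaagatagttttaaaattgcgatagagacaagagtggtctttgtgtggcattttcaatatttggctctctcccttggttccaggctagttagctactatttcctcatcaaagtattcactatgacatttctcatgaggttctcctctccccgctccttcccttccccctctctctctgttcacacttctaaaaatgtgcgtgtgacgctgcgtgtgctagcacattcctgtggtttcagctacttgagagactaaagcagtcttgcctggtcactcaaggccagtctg
The motif was present 1 time in the first window and 0 times in the second, and it occurs in 37.4% of the 32851 promoter windows of the table. The E-box CAGCTG and the ACGTG form of the hypoxia response core (CACGT on the other strand) were in neither window. They occur in 16.3% and 19.6% of all windows. The GCGTG form of that core was not counted over the windows, and it can be read in the second window. These are matches of letters only.

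The members were spread unevenly over the animals. RP1 held 16 members among 7145 nuclei (0.224%, exact 95% binomial interval 0.128 to 0.363%), and RP2 held 135 among 7666 (1.76%, 1.48 to 2.08%). RPC1 held 10 among 10558 (0.0947%, 0.0454 to 0.174%), and RPC2 held 91 among 9441 (0.964%, 0.777 to 1.18%). RP2 and RPC2 were thus the high animals, 1 of each genotype, and the genotypes overlapped. RP animals had a mean share of 0.992% ± 1.09 (SD, n = 2) and RPC animals one of 0.529% ± 0.615 (SD, n = 2), a difference of -0.463 percentage points (two-sided exact permutation test, p = 0.667, where 0.33 is the smallest value that 2 against 2 animals allow). The intervals cover counting error only. Without RP2 the difference turned to 0.305 percentage points.

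**Figure D1:**
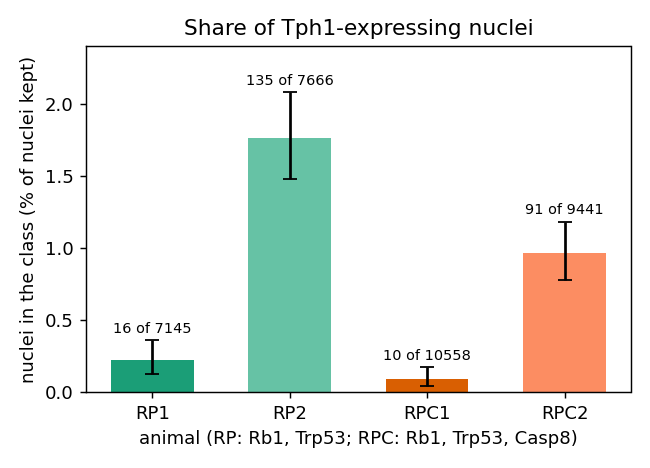
Percentage of nuclei kept that belonged to the Tph1-expressing class (y axis) in each of the 4 animals (x axis), with bars for the share, whiskers for the exact 95% binomial interval and the counts above. RP2 (1.76%) and RPC2 (0.964%) stand above RP1 (0.224%) and RPC1 (0.0947%), so both genotypes hold a high and a low animal.

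The animals kept their order at equal depth. When every nucleus was thinned to 1000 transcripts, Tph1 was found in 3.78% of the nuclei of RP2, 2.37% of RPC2, 0.994% of RP1 and 0.369% of RPC1. Summed over all nuclei, its level was 58.7, 36.3, 12.3 and 5.69 counts per 1000000 transcripts (CPM) in the same order. The 2 barcoding wells of RP2 gave shares of 1.72 and 1.81%, and those of RPC2 gave 0.739 and 1.20%. In RP1, 14 of the 16 members came from 1 of its 2 wells. No barcode was shared between animals.

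Tph1 transcripts were also counted in nuclei of other cells. Among nuclei with at least 2 Ptprc transcripts, and after thinning, Tph1 was found in 0 of 180 nuclei of RP1, 4 of 212 of RP2 (1.89%, exact 95% interval 0.516 to 4.76%), 0 of 232 of RPC1 and 2 of 190 of RPC2 (1.05%, 0.128 to 3.75%). Nuclei with at least 2 of 7 neuroendocrine genes and no exclusion gene gave 1.15, 4.36, 0.368 and 2.55% in the same animals. The intervals of the leukocytes reach the values of the neuroendocrine nuclei in RP2 and RPC2, so a single Tph1 transcript does not separate them at this depth. Unthinned, the leukocytes gave 15.1% in RP2 (median 4296.5 transcripts) against 10.8% of the neuroendocrine nuclei (median 2676). By level, leukocytes held Tph1 at 12.2, 35.0, 7.50 and 26.3 CPM and neuroendocrine nuclei at 12.8, 67.3, 5.69 and 40.3 CPM, with the animals in the order above. The members lay far above both by the rule, and the part of free RNA in the members with 2 transcripts was not tested.

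Within the class the level of Tph1 was skewed. It was 999, 1080.2, 996 and 1241 CPM in the members of RP1, RP2, RPC1 and RPC2, which is a consequence of the rule and was not tested. Exactly 2 transcripts were held by 67 of the 252 members (26.6%), and 40 members held 10 or more. The highest count was 74 in RPC2 and 43 in RP2, but 15 in RP1 and 7 in RPC1. Together the members held 1554 of the 4841 Tph1 transcripts in nuclei kept (32.1%). The remaining transcripts lay in nuclei below the Tph1 limits or with an exclusion gene: 1058 nuclei free of the exclusion genes held 1 transcript, and 261 held 2 or more but less than 0.05%.

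Members were deeper than Tph1-free nuclei in 3 of the 4 animals and equally deep in RPC1. The median was 3905, 3509, 3283.5 and 3311 transcripts in members against 2440, 2295.5, 3282 and 2724 in Tph1-free nuclei. Of the members, 23 exceeded 4 times the median of their animal. Mitochondrial transcripts took 0.569, 0.637, 0.899 and 0.520% in members and 0.386, 0.499, 0.622 and 0.377% in Tph1-free nuclei, higher in members in 4 of 4 animals. The part of depth and of mitochondrial RNA in the results below was not tested beyond the alternatives named.

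Nuclei on either side of the rule's limits were compared without a test. Members with exactly 2 Tph1 transcripts held Thbs1 at 591 CPM in RP2 and 95.2 CPM in RPC2. Nuclei with 2 or more Tph1 transcripts but under the fraction held 319.9 and 28.1 CPM, and nuclei with 1 transcript held 227 and 34.1 CPM. The 2 groups outside the rule therefore also lay above the Tph1-free nuclei of their animal for Thbs1.

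Neuroendocrine markers were present in most members, as in most Tph1-free nuclei. At least 2 of the 7 neuroendocrine genes were found in 13 of 16 members of RP1, 129 of 135 of RP2, 10 of 10 of RPC1 and 90 of 91 of RPC2, that is 81.2, 95.6, 100 and 98.9%. In Tph1-free nuclei the shares were 86.2, 80.5, 94.4 and 92.8%, above the members' share in RP1 and below it in the other 3 animals; members of RP2 and RPC2 were also deeper, whose part in this was not tested. Syt1, a synaptic vesicle protein, held 2189, 1764, 1793 and 1838 CPM in members against 1988, 1277, 1511 and 1934 CPM in Tph1-free nuclei (log2 fold change 0.23, adjusted p = 0.312), which did not pass the test. Defining markers of mast cells, the other cell known for Tph1, were not detected in the members: Cpa3, Fcer1a, Ms4a2, Mcpt4, Mcpt8, Tpsb2, Tpsab1 and Cma1 were at 0 in all 252. For RP2, 0 of 135 allows a share of nuclei with a transcript of up to 2.70%, and for RPC2, 0 of 91 allows up to 3.97% (exact 95% limits). Nuclei with Ptprc, a leukocyte gene, were left out by the rule, and the same genes were near 0 in Tph1-free nuclei as well. In the 5740 Tph1-free nuclei of RP2, Cpa3 held 3 transcripts, Tpsb2 held 2 and the others held 0. The zeros therefore do not set the members apart. The 10 genes of the mast or basophil list summed to 0 to 58.8 CPM in members and 49.9 to 66.3 CPM in Tph1-free nuclei, and Kit and Hdc gave the members' counts. Kit was found in 2 of 16 members of RP1, 27 of 135 of RP2, 0 of 10 of RPC1 and 13 of 91 of RPC2.

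Of the markers named with the class, Thbs1 followed Tph1 and Luzp2 did not. Thbs1 codes for thrombospondin 1, a secreted glycoprotein of the matrix. Its level was 483, 754, 174 and 169 CPM in the members of RP1, RP2, RPC1 and RPC2 against 40.3, 105, 17.4 and 21.0 CPM in Tph1-free nuclei, higher in 4 of 4 animals (log2 fold change 2.94, SE 0.15, adjusted p = 1.34e-78). It was counted in 92 of 135 members of RP2 (68.1%) and in 18.7% of those of RPC2. Luzp2, a leucine zipper protein, held 56.1, 75.6, 0 and 3.80 CPM in members and 63.1, 183, 2.81 and 6.52 CPM in Tph1-free nuclei (log2 fold change -1.20, SE 0.25, edgeR adjusted p = 9.71e-05, and 0.103 with DESeq2). The members' values rest on 5, 54, 0 and 2 transcripts, so RP2 holds most of the counts behind the fall. In RPC1, 1 transcript is worth 24.9 CPM, so the 0 there shows no fall. Both genes were put with the class from earlier results of these data, so their values describe it and are no independent evidence.

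Members were then compared with Tph1-free nuclei of the same animals, which asks what else the nuclei that transcribe Tph1 express. Counts were summed per animal and class and tested with edgeR's quasi-likelihood test with the animal as a block and Benjamini-Hochberg adjustment. By the rule of at least 20 members per animal, RP2 and RPC2 entered the fit. Of 16167 genes tested, 522 were higher in members (3.23%) and 535 were lower (3.31%). All 4 animals moved the same way for 298 of the 522 and for 373 of the 535. RP2 and RPC2 gave the calls, so only the directions of RP1 and RPC1 were not set by the fit. A gene at 0 in the members of an animal was counted as lower there, which favors the falls. The share over all genes was not counted. Counts of 4 animals given below carry the same limit. With all 4 animals in the fit 825 genes were called, and 706 of them were among the 1057, with the same sign; that fit called 222 genes without RP2 and 254 without RPC2. The test rests on 1 residual degree of freedom and a spread shared across all genes. Without the animal block it called 0 genes (1187 at an unadjusted p under 0.05), and with the current form of edgeR's fit 0 (2290 unadjusted), while DESeq2 called 354. The median log2 fold change of all genes was -0.07.

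The targeted genes were counted over their whole length, so the counts do not separate the deleted part and check no label. Casp8 held 112, 72.8, 99.6 and 55.1 CPM in members and 56.3, 58.4, 91.8 and 66.9 CPM in Tph1-free nuclei. Rb1 held 359, 263, 299 and 361 CPM in members, and Trp53 held 11.2, 16.8, 0 and 5.70 CPM. None of the 3 passed the test between classes (adjusted p = 0.925, 0.279 and 0.978).

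Pde10a, Thbs1 and Mest were among the 12 largest rises of called genes whose average log2 CPM was 4 or more. Pde10a, a phosphodiesterase of cyclic nucleotides, had the largest fold (log2 3.05, SE 0.19, adjusted p = 5.2e-54), but 1 nucleus held 130 of its 335 transcripts in RP2, and DESeq2 did not call it (adjusted p = 0.341). Its level was 33.7, 469, 99.6 and 34.2 CPM in members against 16.9, 32.4, 8.73 and 16.8 CPM in Tph1-free nuclei, and of the 2 animals fitted RP2 had the larger difference. Timp3, an inhibitor of matrix metalloproteinases, held 22.5, 175, 174 and 165 CPM against 15.9, 43.8, 60.7 and 38.3 CPM (log2 fold change 2.08), with 31.2% of its RP2 transcripts and 48.3% of its RPC2 transcripts in 1 nucleus each. At 2000 to 6000 transcripts Timp3 was not called (log2 fold change 0.86, adjusted p = 0.152). Mest, an imprinted gene of the hydrolase fold, held 146, 149.7, 24.9 and 47.5 CPM against 19.0, 28.8, 7.02 and 6.82 CPM and was higher in 4 of 4 animals (log2 fold change 2.55, SE 0.24, adjusted p = 1.73e-23). Nefm, a neurofilament subunit, rose by 2.43 on the log2 scale, and Smox, spermine oxidase, by 1.98, both in 4 of 4 animals. For Nefm, 1 nucleus held 6 of the 8 transcripts in RPC2 and 1 nucleus held all 4 in RPC1, while RP1 had 3. Smox had 3 transcripts each in RP1 and RPC1. The other genes among the 12 largest rises were Thbs1, the noncoding 2610203C22Rik, Tc2n, Ptges (prostaglandin E synthase), Adam28, the cation channel Trpc4 and the orphan receptor Gpr158. Of the 12, 7 were higher in 4 of 4 animals, and Tc2n, Ptges, Adam28, Trpc4 and Gpr158 were at 0 in the 10 members of RPC1, Gpr158 also in the 16 of RP1.

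Some genes outside the 12 were higher in the class with larger counts behind them, and they were chosen here after their values had been seen. Tmtc1, an enzyme of protein O-mannosylation, held 662, 985, 498 and 410.5 CPM in members and 47.2, 346, 66.3 and 116 CPM in Tph1-free nuclei (log2 fold change 1.69, SE 0.13, adjusted p = 1.57e-33). Ptprz1, a receptor tyrosine phosphatase, held 808, 1146, 3012 and 1444 CPM against 499, 419, 815 and 551 CPM (log2 fold change 1.45, SE 0.12, adjusted p = 5.85e-29). Pde11a, another phosphodiesterase, held 292, 991, 573 and 336 CPM against 198, 194, 302 and 155 CPM (log2 fold change 1.82, SE 0.14, adjusted p = 1.1e-36). All 3 were higher in 4 of 4 animals. Pparg, a nuclear receptor for fatty acids, held 179.6, 84.0, 49.8 and 112 CPM against 20.5, 26.8, 83.3 and 23.8 CPM (log2 fold change 1.97), and RPC1 went the other way.

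**Figure D2:**
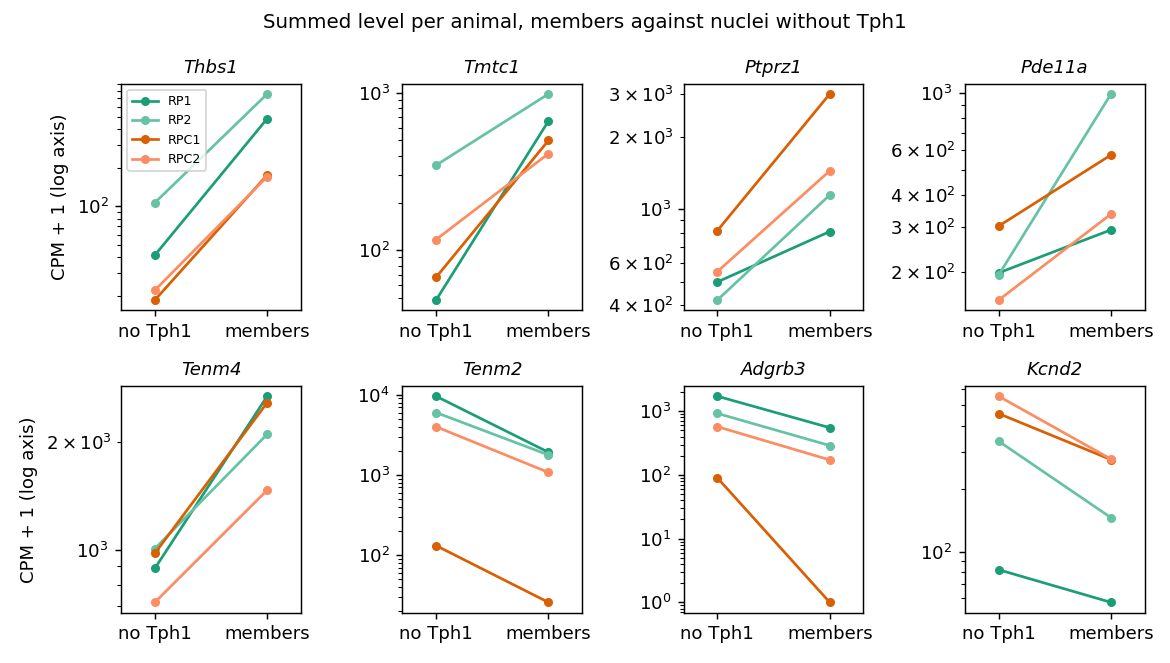
Level of 8 genes, as CPM + 1 on a log axis, in Tph1-free nuclei (left) and in members (right), with 1 line per animal. Thbs1, Tmtc1, Ptprz1, Pde11a and Tenm4 rise and Tenm2, Adgrb3 and Kcnd2 fall along the lines of all 4 animals; Adgrb3 is at 0 in the 10 members of RPC1.

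Tenm2 and Adgrb3, both genes of neuronal adhesion, were lower in members. Tenm2, a teneurin that binds latrophilins across the synapse, held 1919.8, 1777, 24.9 and 1076 CPM in members and 9587, 5996, 131 and 3993 CPM in Tph1-free nuclei (log2 fold change -1.79, SE 0.12, adjusted p = 1.62e-48). Adgrb3, an adhesion receptor of synapses, held 550.1, 288, 0 and 171 CPM against 1719, 923, 89.1 and 571 CPM (log2 fold change -1.67, SE 0.14, adjusted p = 4.71e-29). Members were lower in 4 of 4 animals for both. Kcnd2, a potassium channel, fell by 1.08 on the log2 scale, Grm5, a glutamate receptor, by 0.94, and the transcription factor Npas3 by 0.64. Mycl fell by 0.95 as well, at 56.1, 39.2, 0 and 3.80 CPM in members. These 6 belong to the 17 genes that the study names, of which 6 were lower and 0 higher, beside 3.31 and 3.23% over all genes. The median log2 fold change of the 17 was -0.41 against -0.07 over all genes. In its ordering of tumor cells by pseudotime the study places Kcnd2 and Grm5 early and Tenm2, Adgrb3 and Npas3 late. It reports Mycl as lower in RPC tumors. The count and the median therefore pool genes of opposite directions in the study. The study chose these 17 on the same animals. Tenm4, a paralog of Tenm2, went the other way at 2672, 2095, 2564 and 1465 CPM against 888, 1007, 978 and 715 CPM (log2 fold change 1.08, SE 0.12, adjusted p = 1.05e-16), while Tenm1 held 561, 498, 523 and 656 CPM against 615, 535, 422 and 649.7 CPM and did not pass (adjusted p = 0.981).

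The 12 largest falls rested on few transcripts in members. They were Agap2, 2610318N02Rik, Cbr2, Gm30835, Gm29266, Tafa5, Dmc1, Myo5c, Wnk3, Dnah12, Eln and Wwc2. Gm30835 held 33.7, 72.8, 0 and 3.80 CPM in members against 311, 516, 9.56 and 14.8 CPM (log2 fold change -2.73, SE 0.23, adjusted p = 3.28e-29). Agap2, a GTPase-activating protein, had the largest fold, at 11.2, 2.80, 0 and 1.90 CPM against 24.2, 18.7, 7.37 and 25.7 CPM (log2 fold change -3.13, SE 0.62), and its value in RP2 rests on 2 transcripts.

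In the fit of RP2 and RPC2 no other gene of serotonin handling was called. Of 12 tested genes of synthesis, storage, uptake and breakdown, 0 passed the edgeR test in either direction, with a median log2 fold change of 0.31. With 3.23 and 3.31% called over all genes, few calls among 12 could arise at that rate. At an unadjusted p under 0.05 there were 3 of them, Ddc, Slc18a1 and Spr, and DESeq2 called 0 of the 4 to which it gave an adjusted p. The fit of all 4 animals called 1 of 11, Spr, an enzyme in the synthesis of the cofactor of Tph1 (log2 fold change 1.82, edgeR adjusted p = 0.029). Spr rested on 0, 4, 1 and 6 transcripts in members, at 0, 5.60, 24.9 and 11.4 CPM against 1.89, 2.01, 5.18 and 2.41 CPM. Ddc held 595, 613, 647 and 606 CPM in members and 1006, 665, 924 and 855 CPM in Tph1-free nuclei, lower in 4 of 4 animals (log2 fold change -0.27, SE 0.13, adjusted p = 0.233). Slc18a1, the vesicular monoamine transporter of endocrine cells, held 382, 449, 299 and 637 CPM against 309, 348, 556 and 541 CPM (log2 fold change 0.33, SE 0.13, adjusted p = 0.115). Both were present in the class, and neither difference passed the test. Gch1, which starts the synthesis of the cofactor of Tph1, held 112, 65.8, 49.8 and 38.0 CPM against 58.1, 45.8, 63.1 and 42.4 CPM (adjusted p = 0.63). Tph2, the hydroxylase of the brain, and Slc6a4, the serotonin transporter, were at 0 in the 252 members, and Slc18a2 had 1 transcript. By edgeR 0 of 3 tested serotonin receptors passed (1 at an unadjusted p under 0.05; DESeq2 gave none an adjusted p), and 0 of 11 tested factors of serotonergic and enteroendocrine cells (2 unadjusted; DESeq2 called 0 of 8).

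Several genes of the secretory granule were higher. Of 13 granins and prohormone processing genes, 6 rose and 1 fell, with a median log2 fold change of 0.60. Over all genes 3.23% rose and 3.31% fell, with a median of -0.07. Scg2 (secretogranin 2) held 135, 162, 124 and 215 CPM in members against 36.6, 63.7, 67.2 and 103 CPM (log2 fold change 1.24, SE 0.16, adjusted p = 5.88e-12), and Chga (chromogranin A) held 359, 448, 199 and 340.2 CPM against 221, 201, 181 and 203 CPM (log2 fold change 0.99, SE 0.14, adjusted p = 1.39e-10). Members of all 4 animals lay above the Tph1-free nuclei for both. Cpe, a carboxypeptidase that trims prohormones, rose by 1.17 on the log2 scale, Chgb by 0.81, and the prohormone convertases Pcsk2 and Pcsk1 by 0.70 and 0.53. Cadps2, which primes granules for release, held 1055, 1103, 797 and 1197 CPM against 2053, 1387, 1369.9 and 1662 CPM and fell by 0.37. The 16 neuroendocrine tumor markers, which share Chga, Chgb and Scg2 with this list, had 5 rises and 0 falls; the others were Snap25 (0.52) and Resp18 (0.85). Calca, the gene of calcitonin and its related peptide, held 427, 597, 2141 and 2066 CPM against 774, 692, 1736 and 1611 CPM and did not pass (log2 fold change 0.11, adjusted p = 0.751), and its sign turned with all 4 animals (-0.16) and in nuclei of low mitosis counts (-0.12).

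**Figure D3:**
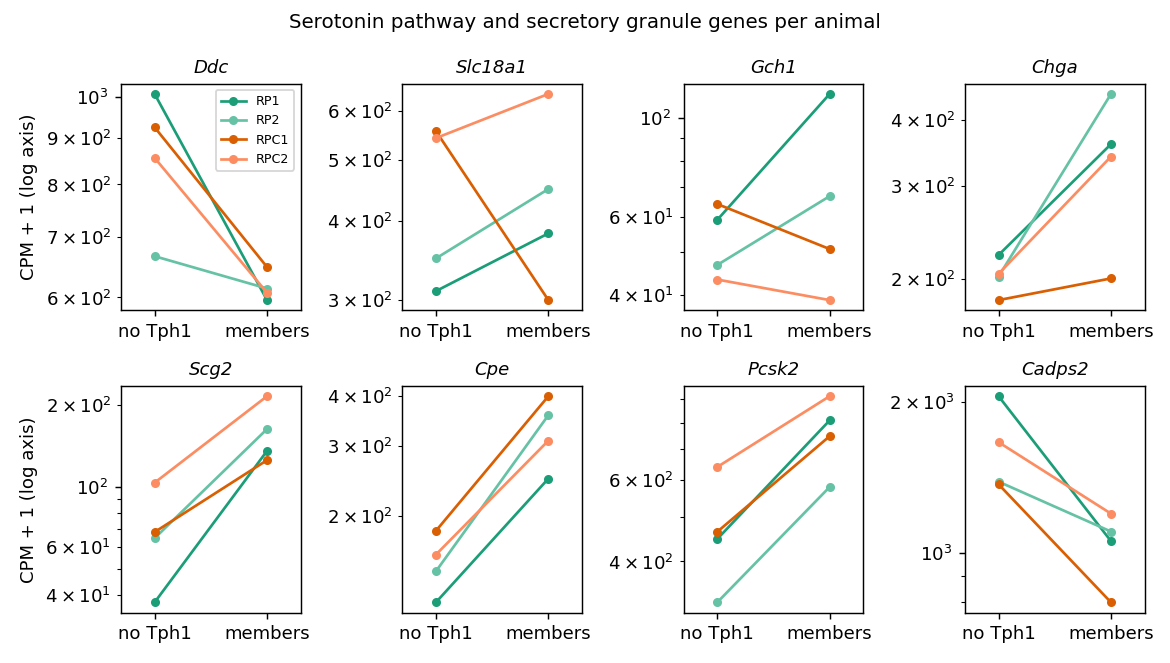
Level of 3 serotonin pathway genes (Ddc, Slc18a1, Gch1) and 5 granule genes, as CPM + 1 on a log axis, in Tph1-free nuclei and in members, with 1 line per animal. Ddc falls in 4 of 4 animals without passing the test, while Scg2, Chga, Cpe and Pcsk2 rise in all 4 and Cadps2 falls.

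Of 11 tested genes of the thrombospondins and their receptors 4 rose and 0 fell, beside 3.23 and 3.31% over all genes. The rises were Thbs1, a marker the class was named with, the integrin subunits Itgav (0.81 on the log2 scale) and Itgb3 (1.08), and the scavenger receptor Stab2 (1.23). Itgav, Itgb3 and Stab2 were not called by DESeq2 (adjusted p = 0.221, 0.185 and 0.333), in low mitosis nuclei (edgeR adjusted p = 0.0648, 0.117 and 0.609) or in nuclei without Thbs1 (0.843, 0.211 and 0.116), and of the 3 the fit at 2000 to 6000 transcripts called Itgb3 alone (adjusted p = 0.825, 0.038 and 0.655). Of 13 genes that respond to YAP or TGF-beta, factors known to induce Thbs1 in other cells, 1 rose (Tgfb3, 0.96) and 0 fell. The same shares over all genes, 3.23 and 3.31%, stand beside these counts.

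Fewer transcripts of mitosis were counted in the class. Of 15 mitosis genes 12 fell and 0 rose, beside 3.31 and 3.23% over all genes. Their median log2 fold change was -1.16. Mki67 held 337, 298, 99.6 and 667 CPM in members and 707, 619, 955 and 1319 CPM in Tph1-free nuclei (log2 fold change -0.99, SE 0.13, adjusted p = 7.28e-12), and Top2a, the topoisomerase of dividing cells, held 179.6, 194, 74.7 and 255 CPM against 522, 454, 555 and 605 CPM (log2 fold change -1.20, SE 0.14, adjusted p = 1.34e-14). Both were lower in 4 of 4 animals. After thinning to 1000 transcripts, 49.1% ± 8.95 (SD, n = 4 animals) of members and 69.8% ± 6.06 of Tph1-free nuclei held a transcript of the mitosis list, a difference of -20.7 percentage points (two-sided exact paired permutation test, p = 0.125, the smallest value that 4 animals allow). For the S phase list the shares were 33.4% ± 4.11 and 48.2% ± 3.09, a difference of -14.8 percentage points (exact permutation p = 0.125), and 2 of 15 genes fell (Mcm7 and Tyms). In an alternative chosen after the data were seen, the comparison was also made among nuclei with at most 0.1% mitosis transcripts. There 501 genes were called, 443 of them among the 1057; Thbs1 (2.56), Tmtc1 (1.40), Tenm2 (-2.41), Cpe (1.28) and Chga (0.93) kept their calls.

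Several genes known to respond to low oxygen were higher, in a list that was added after the values had been seen and is given as a description. Of 30 tested genes 14 rose and 0 fell, beside 3.23 and 3.31% over all genes. Their median log2 fold change was 0.68. Egln3, a prolyl hydroxylase that senses oxygen, held 314, 206, 199 and 79.8 CPM in members and 63.2, 63.1, 90.4 and 24.5 CPM in Tph1-free nuclei (log2 fold change 1.74, SE 0.19, adjusted p = 1.53e-17). Bnip3, a protein of mitophagy, held 225, 122, 24.9 and 70.3 CPM against 63.8, 40.8, 43.2 and 18.3 CPM (log2 fold change 1.76, SE 0.22, adjusted p = 1.6e-13), lower in RPC1. P4ha1, an enzyme of collagen hydroxylation, rose by 1.09, Vegfa by 0.95, the glucose transporter Slc2a1 by 1.02 and Ldha by 0.88 on the log2 scale. In nuclei of low mitosis counts 5 of 29 tested genes were called. The summed level of the list was 1414 to 3132 CPM in members and 847 to 1552 CPM in Tph1-free nuclei, and members were higher in 4 of 4 animals. Of 14 early response and stress genes, which are known to move with tissue handling, 3 rose (Fosl2, Jun and Hsph1) and 0 fell, and their part in this result was not tested.

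**Figure D4:**
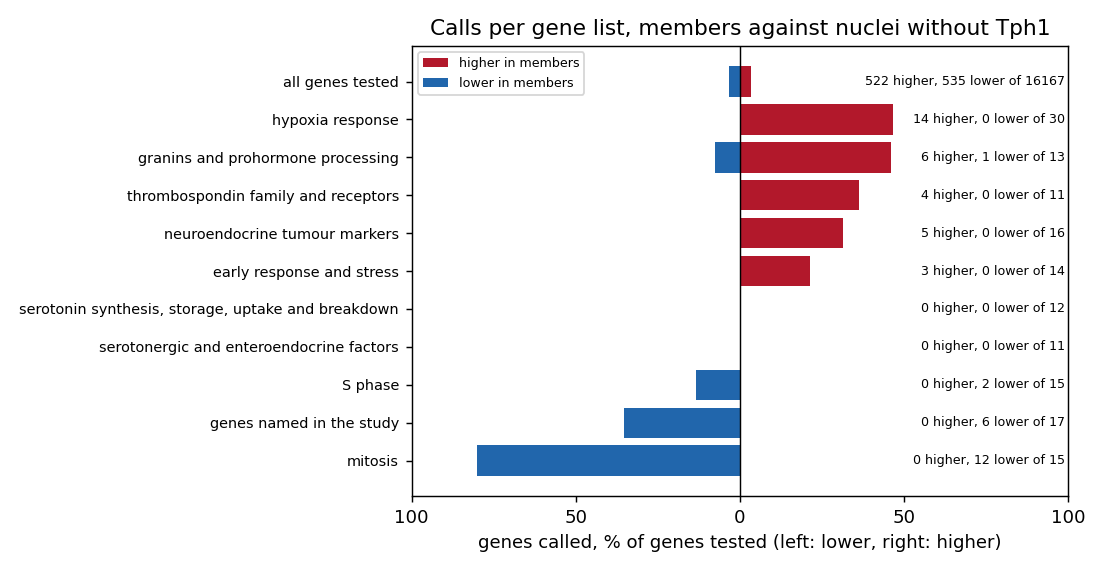
Share of the tested genes of each list that were called (x axis, percent; right and red for higher in members, left and blue for lower), with the counts at the right edge. Mitosis genes lie on the lower side (12 of 15), hypoxia and granule genes mostly on the higher side (14 of 30 and 6 of 13), and the 2 serotonergic lists have 0 calls, beside 3.23 and 3.31% over all genes.

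Markers of other cells were not called higher in the class, apart from Krt19. The exclusion genes were at 0 by the rule. The fibroblast list summed to 24.7 to 42.0 CPM in members and 12.1 to 50.3 CPM in Tph1-free nuclei, the endothelial list to 0 to 45.6 against 18.5 to 42.3 CPM, and the macrophage list to 11.2 to 49.8 against 28.1 to 46.5 CPM. Of the alveolar type 1 list 3 of 7 tested genes fell, of the club cell list 2 of 6 and of the alveolar type 2 list 1 of 7. The share of falls over all genes was 3.31%. When both classes were limited to nuclei with at least 2 of the 7 neuroendocrine genes, 2 of 7, 0 of 6 and 1 of 7 fell. The part of other lung cells among the Tph1-free nuclei was not tested further. The T or NK list summed to 828 to 1111 CPM in members and 872 to 1316 CPM in Tph1-free nuclei, nearly all from Skap1, at 1111, 826, 946 and 1009 CPM in members, and had 0 calls. Krt19, a keratin of epithelia from the mesothelial list, rose by 2.20 on the log2 scale at 33.7, 22.4, 49.8 and 19.0 CPM in members.

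The neighbourhood of Tph1 on the chromosome did not rise with it as a whole. Of 93 genes within 1 Mb, 34 were tested and 2 were called, both higher, beside 3.23% higher over all genes. The median log2 fold change was -0.07, the value of all genes. The called genes were Ldha (0.88), which is also on the hypoxia list, and Fam83e (1.42, SE 0.43, adjusted p = 0.0196).

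Among nuclei of similar depth, Tmtc1 and Tenm2 moved in 1 direction at every step of the Tph1 count in RP2 and in RPC2, while several other genes, Ptprz1, Chga and Timp3 among them, did not in at least 1 of these animals. No step was tested. Among nuclei of 2000 to 6000 transcripts of RP2, Thbs1 held 102 CPM at 0 Tph1 transcripts, 265 CPM at 1, 655 CPM at 2 to 3 and 986 CPM at 4 or more. In RPC2 the same steps gave 19.9, 56.5, 41.5 and 341 CPM. Tmtc1 went through 354, 709, 943 and 1568 CPM in RP2 and through 117, 215, 237 and 631 CPM in RPC2. Tenm2 went through 6157, 3805, 3037 and 1041 CPM in RP2 and through 3927, 2336, 705 and 601 CPM in RPC2. The mitosis list went from 2370 to 1371, 958 and 1020.2 CPM in RP2, and from 3587 to 2895, 1736 and 1222 CPM in RPC2. For Ddc the values were 666, 585, 712 and 582 CPM in RP2, in no order. The upper 2 steps hold 56 and 40 nuclei in RP2 and 45 and 27 in RPC2, and nuclei of 1 animal are not replicates. In the fit limited to this depth range, Thbs1 had a log2 fold change of 3.14 and Tenm2 of -2.45, and 508 genes were called, 464 of them among the 1057.

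**Figure D5:**
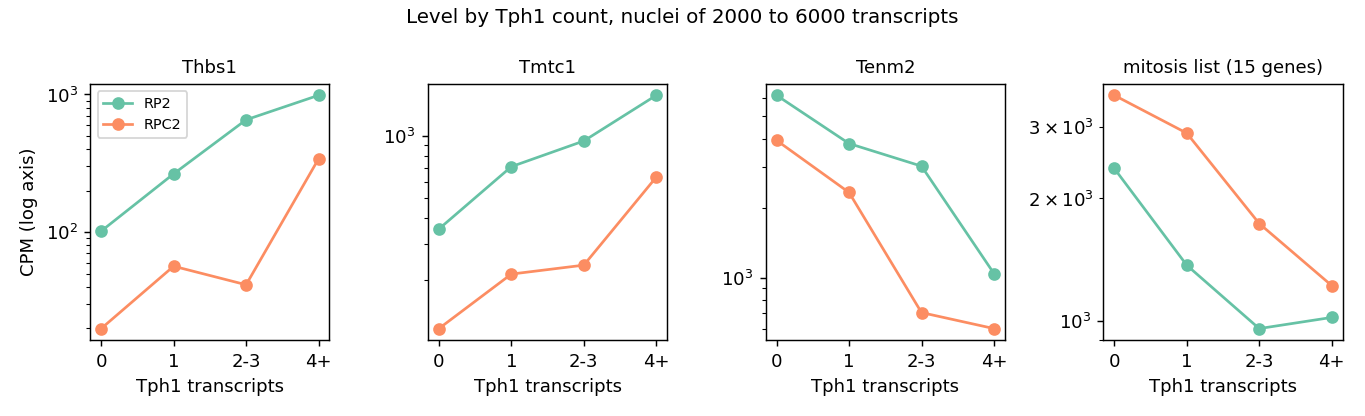
Summed level in CPM (log y axis) of Thbs1, Tmtc1, Tenm2 and the mitosis list by the number of Tph1 transcripts in the nucleus (x axis: 0, 1, 2 to 3, 4 or more), for nuclei of 2000 to 6000 transcripts in RP2 and RPC2. Thbs1 and Tmtc1 are highest at 4 or more (986 and 1568 CPM in RP2), and Tenm2 is lowest there (1041 and 601 CPM).

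Some of the other differences were also called in nuclei in which no Thbs1 was counted. When nuclei holding any Thbs1 transcript were left out on both sides, 43 members of RP2 and 74 of RPC2 remained. In that fit 346 genes were called, and 315 of them were among the 1057 with the same sign. Tenm2, Tmtc1, Ptprz1, Tenm4 and Scg2 were among them, with adjusted p = 1.31e-19, 1.40e-15, 5.97e-13, 8.63e-06 and 6.88e-07. Of the 12 largest rises, Nefm, Gpr158, Trpc4, Adam28 and Smox were not called there (edgeR adjusted p = 0.838, 0.476, 0.416, 0.271 and 0.222). Of the 73 called genes named in the text that this fit tested, 37 kept their call.

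Members of RPC animals were compared with members of RP animals, which asks whether the class differs with the loss of Casp8. By the rule of 20 members this left 1 animal per genotype and no test. Between RPC2 and RP2, 18 of 6881 genes (0.262%) differed at least 4-fold, 11 higher and 7 lower in RPC2. With all 4 animals, of which RP1 and RPC1 gave 16 and 10 members, edgeR called 7 of 5754 genes (0.122%; 308 at an unadjusted p under 0.05), and DESeq2 called 4. Without RP1, 0 genes were called, and without RP2, RPC1 or RPC2 the counts were 10, 22 and 20.

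For all 7 genes both RPC animals lay on the same side of both RP animals, in members as in Tph1-free nuclei. Calca held 427, 597, 2141 and 2066 CPM in the members of RP1, RP2, RPC1 and RPC2 (log2 of RPC over RP 1.94, SE 0.37, adjusted p = 0.0344), beside 774, 692, 1736 and 1611 CPM in Tph1-free nuclei. Frmpd4, a scaffold protein of synapses, held 191, 456, 3162 and 1631 CPM in members (log2 2.66, SE 0.43, adjusted p = 0.0159) and 321, 476, 2297 and 1397 CPM in Tph1-free nuclei. The potassium channel gene Kcnma1 (log2 1.86) and the cytokine receptor gene Il18r1 (log2 3.46) were also higher in RPC. Il18r1 rested on 1, 6, 2 and 62 transcripts in the members of RP1, RP2, RPC1 and RPC2, at 11.2, 8.40, 49.8 and 118 CPM. Thbs1 was lower in RPC (log2 -1.93, SE 0.39, adjusted p = 0.0454, and 0.291 with DESeq2). Lars2 and Rn7sk were lower as well (log2 -2.34 and -2.44). Rn7sk is a small nuclear RNA, and reads of its copies may be split. Lars2 held 18097, 10876, 2739 and 3151 CPM in members, in the same order of animals. The animals also differed in ribosomal RNA. Rn18s-rs5 took 5.41, 7.83, 2.37 and 5.58% of the transcripts of members and 9.17, 7.46, 2.83 and 4.81% of those of Tph1-free nuclei. Its part in the values of Lars2 and Rn7sk was not tested.

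The contrast of members with Tph1-free nuclei was not found to differ between the genotypes. In the interaction test with all 4 animals edgeR called 0 of 15300 genes (459 at an unadjusted p under 0.05, smallest adjusted p = 0.0842), and DESeq2 called 0. For Thbs1 the interaction was -0.07 on the log2 scale (unadjusted p = 0.875).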

How the data were processed

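Nuclei of lung tumors of 4 mice were profiled by split-pool barcoding (Parse Evercode). The authors aligned the reads to GRCm39 (per the submitters' processing notes) with the Parse pipeline, and the deposited matrices, 1 per animal, hold raw transcript counts per nucleus and gene, with 32299909 to 72446861 transcripts per animal. Groups came from the labels. Of the deposited table of nuclei, 7 columns were not used.

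Counts of members and of Tph1-free nuclei were summed per animal. They were tested with edgeR 4.0.16 (R 4.3.3; filterByExpr, TMM, quasi-likelihood test in its legacy form, animal as block, two-sided, Benjamini-Hochberg adjusted p under 0.05). The animal paired the classes, since both came from the same tumor. Standard errors were calculated as |log2 fold change| over the root of F. CPM are sums per 1000000 transcripts of the class, without TMM. The genes of the rule took no test. DESeq2 1.42.0, the tool of the study, was an alternative. Shares carry exact binomial intervals (Python 3.11.15, scipy 1.17.1). For thinning, nuclei were drawn to 1000 transcripts with seed 1. No doublet caller was run; leaving out nuclei deeper than 4 medians of the animal was an alternative. Scripts were tested on simulated data.

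The text names genes of the lists, neighbours of Tph1 within 1 Mb, in each direction the 12 largest changes called above an average log2 CPM of 4 with the same sign in the animals used, and up to 5 called genes per direction between genotypes. The members and the lists were chosen with earlier results of these data known. The fit of all 4 animals, low mitosis nuclei, the current edgeR form and nuclei without Thbs1 were added after seeing the data. The result of 1 gene is not reported here.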

Additional observations from a re-analysis of the deposited data

Results flagged for a closer look

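Tph1 counts outside the class exceeded a fixed floor of 3 nuclei in 2 places. The floor is a setting and no expected rate. Among the 5243 nuclei that passed the limits but held an exclusion gene, 27 met both Tph1 limits (0.515%, above the 0.0572% that 3 counts would give). Among the 29567 nuclei free of the exclusion genes, 252 met them. Among the 3505 nuclei below 1000 transcripts, 5 held 2 or more Tph1 transcripts (0.143%, above 0.0856%). What these nuclei are was not tested.

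For 4 genes named in the text the animals of the genotypes moved in opposite directions between the classes, as did 1239 of 16167 tested genes (7.66%). Frmpd4 was lower in members than in Tph1-free nuclei in both RP animals and higher in both RPC animals, with an interaction of 0.53 on the log2 scale (unadjusted p = 0.184). Calca showed the same split, with an interaction of 0.73 (unadjusted p = 0.0633). Tenm1 did so as well, with an interaction of 0.19 (unadjusted p = 0.645). Gch1 was higher in members in both RP animals and lower in both RPC animals, with an interaction of -0.85 (unadjusted p = 0.141). None of the 4 passed edgeR's interaction test after adjustment over all genes.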

How the results depend on the processing

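The share of members was lower in RPC than in RP in all settings except without RP2, and leaving out each animal gave differences of -1.23 to 0.305 percentage points. Against 1057 genes called between classes, DESeq2 called 354 (all among the 1057). The fit of nuclei with at least 2 neuroendocrine genes called 984 (962 among the 1057). The fit at 2000 to 6000 transcripts called 508 (464 among them), low mitosis nuclei 501 (443) and nuclei without Thbs1 346 (315). Without the replicate block and in the current form of the fit the count was 0. The calls therefore rest on pairing the classes within the animal and on the legacy estimate of spread. Leaving out 1 of the 2 animals leaves no residual degree of freedom and was not run for this fit; with all 4 animals (825 calls) it gave 222 (without RP2) to 832 (without RPC1). Of the 74 called genes named in the text, DESeq2 kept 47 calls, all 4 animals 65 and low mitosis nuclei 50. The fit at 2000 to 6000 transcripts kept 48, and the fit without Thbs1 nuclei kept 37 of 73. Without the replicate block and in the current form of the fit 0 calls were kept. In these settings 0 of the named called genes changed sign. Of all called genes that could be tested, 24 of 1046 turned in low mitosis nuclei and 5 of 1050 without Thbs1 nuclei. The count was 1 of 1051 with all 4 animals and 1 of 1055 at 2000 to 6000 transcripts.

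Between genotypes with all 4 animals (7 calls), the count was 4 with DESeq2, 0 with a Tph1 minimum of 3, 0 without deep nuclei and 24 with the replicate block, and leaving out each animal gave 0 (without RP1) to 22 (without RPC1), with 20 without RPC2 and 10 without RP2. The replicate numbers share only a label: the deviations of RP1 and RPC1 from their genotype means correlated at -0.01 over 5754 genes. For RPC2 against RP2 alone, 75 genes passed 4-fold with no filter instead of 18. The interaction (0 calls) gave 1 with RLE scaling, 1 with a Tph1 minimum of 3 and 0 to 1 on leaving out each animal.

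Among the genes named in the text, signs turned for some that did not pass between the classes: Calca (-0.16 with all 4 animals, -0.12 in low mitosis nuclei), Frmpd4 (-0.0516 at 2000 to 6000 transcripts, -0.0455 with all 4 animals, -0.254 in low mitosis nuclei), Il18r1 (-0.196 with DESeq2, -0.018 with no filter, -0.035 with a Tph1 minimum of 3, -0.0624 with all 4 animals, -0.446 in low mitosis nuclei), Casp8 (-0.0625 without Thbs1 nuclei), Trp53 (0.0189 with a Tph1 minimum of 3), Gch1 (-0.1224 without Thbs1 nuclei), Tenm1 (0.0064 with DESeq2 and with RLE scaling, 0.0333 with exclusion genes kept) and Skap1 (-0.0349 with no filter, -0.03 without deep nuclei, -0.1628 with all 4 animals, -0.0124 in low mitosis nuclei, -0.113 without Thbs1 nuclei). The causes were not tested. With 10 and 16 members, RPC1 and RP1 limit what can be said of low genes: 1 transcript is worth 24.9 CPM in RPC1 and 11.2 CPM in RP1.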
